A study of Homo sapiens with 6 samples.

Results

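The ZKSCAN genes encode zinc finger proteins that carry a SCAN domain, through which such proteins pair with one another. Most isoforms also carry a KRAB domain. In many other zinc finger proteins a KRAB domain recruits the corepressor TRIM28 to chromatin, which was not tested here for the ZKSCAN proteins. The zinc fingers at the other end of the ZKSCAN proteins bind DNA. Genes of this kind lie in clusters of related copies, and several ZKSCAN genes sit beside other SCAN domain genes. All 7 listed members, ZKSCAN1, ZKSCAN2, ZKSCAN3, ZKSCAN4, ZKSCAN5, ZKSCAN7 and ZKSCAN8, were found by symbol among the 67051 gene identifiers of the count tables, and all 7 passed the filter on low counts that left 23133 genes. They were picked because 2 of them, ZKSCAN2 and ZKSCAN7, were lower after 24 h than after 0.5 h of MPP+, so that difference is a description here and not a test.

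Transcription was measured by PRO-seq, which sequences RNA extended by engaged polymerases in isolated nuclei, in SH-SY5Y, a human neuroblastoma line. There were 3 groups of 2 libraries: untreated cells, cells given 0.1 mM MPP+ during 0.5 h, and cells given the same dose during 24 h. MPP+ is a neurotoxin known to block mitochondrial complex I. Nothing in the labels ties the 2 libraries of a group to separate cultures. The p-values therefore reflect library-to-library spread alone, which could be technical, and n is a number of libraries.

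The libraries held from 5983066 to 11707612 assigned counts, and the 7 genes together took 0.0497% to 0.0617% of them. The share on mtDNA genes, whose transcription the series is titled for, was 0.144% and 0.149% in untreated cells, 0.0275% and 0.0372% at 0.5 h, and 0.0334% and 0.029% at 24 h. Of 11 genes that mark adrenergic neuroblasts, the cell state SH-SY5Y is known for, 8 had at least 1 CPM (counts scaled to a common library size), while TH, TBX2 and INSM1 did not. All 13 markers of the mesenchymal neuroblastoma state also reached 1 CPM. The summed level of the first list was 2833 to 3325 CPM in untreated cells, 2688 to 3154 CPM at 0.5 h and 2498 to 3115 CPM at 24 h. The second list had 1538 to 1983 CPM in untreated cells, 1505 to 1916 CPM at 0.5 h and 1447 to 1705 CPM at 24 h. Of 10 markers of blood, endothelial, epithelial, glial and liver cells, 4 (ALB, CD3E, KRT18 and LYZ) lay below 1 CPM. The other 6 (PTPRC, CD79A, PECAM1, VWF, EPCAM and GFAP) had at least 1 CPM. All 10 together summed to between 165 and 203 CPM in every library. The part of these differences in the results below was not tested. In bulk libraries, fewer cells that transcribe a gene and less RNA per cell cannot be told apart.

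The members lie on 4 chromosomes of hg38, with spans from GENCODE 29. ZKSCAN3 (ENSG00000189298.14, chromosome 6, 28349914 to 28369177, plus strand), ZKSCAN4 (ENSG00000187626.9, 28244623 to 28252224, minus strand) and ZKSCAN8 (ENSG00000198315.11, 28141910 to 28159472, plus strand) share 1 cluster. ZKSCAN1 (ENSG00000106261.17, 100015572 to 100041689) and ZKSCAN5 (ENSG00000196652.12, 99504651 to 99534700) lie on chromosome 7, both on the plus strand. ZKSCAN2 (ENSG00000155592.16, 25236001 to 25257931, minus strand) is on chromosome 16 and ZKSCAN7 (ENSG00000196345.13, 44555193 to 44594173, plus strand) on chromosome 3.

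The promoters were searched for short words, and no measure of likeness between them is given here. RefSeq (GRCh38.p14) held a promoter for 6 of the 7 members. Shown are the 80 bases before the RefSeq start nearest to the GENCODE 29 start, 5′ to 3′ on the gene's strand. Capitals mark GGAAG on either strand (CTTCC on the other), the core of sites bound by ETS factors, and the word CTAGAG on the gene's strand. The regions are chr7:100015516-100015595 (plus) for ZKSCAN1, chr6:28349867-28349946 (plus) for ZKSCAN3, chr6:28252270-28252349 (minus) for ZKSCAN4, chr7:99504582-99504661 (plus) for ZKSCAN5, chr3:44555113-44555192 (plus) for ZKSCAN7 and chr6:28141803-28141882 (plus) for ZKSCAN8.
ZKSCAN1: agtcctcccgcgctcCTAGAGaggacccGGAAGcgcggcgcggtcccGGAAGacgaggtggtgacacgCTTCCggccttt
ZKSCAN8: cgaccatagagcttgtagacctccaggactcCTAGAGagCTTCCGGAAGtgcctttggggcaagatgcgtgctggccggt
ZKSCAN4: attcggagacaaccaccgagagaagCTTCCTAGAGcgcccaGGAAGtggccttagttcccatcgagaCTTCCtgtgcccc
ZKSCAN3: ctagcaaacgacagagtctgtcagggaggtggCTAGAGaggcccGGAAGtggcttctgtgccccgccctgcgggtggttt
ZKSCAN7: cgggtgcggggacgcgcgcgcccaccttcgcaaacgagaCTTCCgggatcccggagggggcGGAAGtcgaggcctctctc
ZKSCAN5: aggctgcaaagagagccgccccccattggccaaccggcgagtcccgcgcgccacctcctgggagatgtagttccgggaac

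In ZKSCAN1, ZKSCAN3, ZKSCAN4 and ZKSCAN8 the word CTAGAG was followed by GGAAG after 6 or 7 other bases. The pair began 65 bases before the start in ZKSCAN1, 51 in ZKSCAN4, 49 in ZKSCAN8 and 48 in ZKSCAN3. In ZKSCAN4 the first word shares a base with a CTTCC before it. Searched on the gene's strand, with any 6 or 7 bases between the words, in the 250 bases before each start, the pair stood in 20 of 35116 RefSeq promoters (0.057%). Those 20 belonged to the 4 members, to SCAND3, ZNF496, ZSCAN12 and ZSCAN25, which are 4 of the 42 other SCAN domain genes with a promoter in the table, and to 12 other genes. The pair was picked after the sequences had been read, so the share is a description. ZKSCAN5 and ZKSCAN7 did not hold the pair, and ZKSCAN2 was the member without a promoter to search. The longer ETS word CCGGAAG on either strand was found in that window in 4 of the 6 members (ZKSCAN1, ZKSCAN3, ZKSCAN7 and ZKSCAN8), against 8.52% of all promoters, 10.2% of the 27305 genes in the table and 18 of the 42 other SCAN domain genes. A TATA box (TATAAA, either strand) was found in 0 of the 6, against 10.7% of all promoters and 2 of the 42. CCAAT was found in ZKSCAN5 alone, against 32% of all promoters and 20 of the 42. The GC box GGGCGG was found in 4 of the 6, against 42.6% of all promoters and 26 of the 42.

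ZKSCAN1 had the highest level per length of the 7 genes and ZKSCAN3 the lowest. Levels are TMM-scaled CPM per kb of annotated exon, as the mean over 6 libraries with the lowest and highest library. ZKSCAN1, which is also known as the source of an abundant circular RNA, had 23.8 CPM per kb (19.1 to 28.3). These counts are of RNA extended by engaged polymerases and do not measure that circular RNA. ZKSCAN7 had 13.1 (9.84 to 16.1), ZKSCAN4 12.7 (10.9 to 13.9) and ZKSCAN5 12.1 CPM per kb (11.2 to 13.4), and the ranges of neighbours in this group of 3 overlapped. ZKSCAN8 followed with 9.62 (8.61 to 11.1), ZKSCAN2 with 7.78 (6.23 to 9.48) and ZKSCAN3 with 3.8 CPM per kb (3.33 to 4.07). ZKSCAN8 lay above ZKSCAN2 in 6 of 6 libraries, although their ranges overlapped, and ZKSCAN3 stood apart from all others. Whether the counts cover exons or whole genes is not given in the sources used here. Per kb of gene span ZKSCAN1 was again highest at 9.42 CPM per kb and ZKSCAN3 lowest at 0.956, but ZKSCAN7 took the place next to last at 1.42 CPM per kb.

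ZKSCAN7 had 56.2 and 50.9 CPM in the untreated libraries, 67.6 and 66.8 CPM at 0.5 h, and 48.1 and 41.4 CPM at 24 h. Both 0.5 h libraries lay above both untreated ones, and both 24 h libraries lay below them, with no overlap among the 3 groups. Its mean was 67.2 ± 0.594 CPM at 0.5 h, against 53.5 ± 3.72 CPM in untreated cells (SD, n = 2 each), a log2 fold change of 0.33 ± 0.11 (SE, 95% interval 0.079 to 0.58) that did not pass over all genes (edgeR quasi-likelihood test, adjusted p = 1). At 24 h its mean was 44.7 ± 4.73 CPM, a log2 fold change against untreated cells of -0.25 ± 0.12 (interval -0.51 to 0.0081, edgeR adjusted p = 0.625), and it ran from -0.37 without 24 h replicate 1 to -0.15 without 24 h replicate 2. Each of these comparisons shares a group with the 24 h against 0.5 h difference that chose the gene.

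ZKSCAN2 showed the same order of groups. It had 63.2 and 58.8 CPM in the untreated libraries, 75.6 and 72.7 CPM at 0.5 h, and 52.1 and 49.7 CPM at 24 h. Its mean was 74.1 ± 2.05 CPM at 0.5 h, against 61 ± 3.16 CPM in untreated cells (SD, n = 2 each), a log2 fold change of 0.28 ± 0.10 (interval 0.061 to 0.50, edgeR adjusted p = 1). At 24 h it was 50.9 ± 1.73 CPM, a log2 fold change against untreated cells of -0.26 ± 0.10 (interval -0.49 to -0.03, edgeR adjusted p = 0.6). Neither value passed the threshold of 0.05. Each comparison shares a group with the 24 h against 0.5 h difference that chose ZKSCAN2, so these intervals are descriptions. As a description of what chose the members, the log2 fold change of 24 h over 0.5 h was -0.58 for ZKSCAN7 and -0.54 for ZKSCAN2, or 1.5-fold and 1.46-fold lower. The next member in that order, ZKSCAN1, had -0.26.

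Over all tested genes, 327 of 23133 (1.41%) had both 0.5 h libraries above and both 24 h libraries below both untreated libraries. ZKSCAN2 and ZKSCAN7 were 2 of these, and since the members were chosen on 2 of the groups, nothing is read from that count. Across the 6 libraries the log2 levels of ZKSCAN2 and ZKSCAN7 had a Pearson correlation of 0.985. Both genes were chosen for being lower at 24 h than at 0.5 h, so a high value was partly fixed by that choice. The libraries also share depth and scaling, and the correlation is a description without a p.

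**Figure D1:**
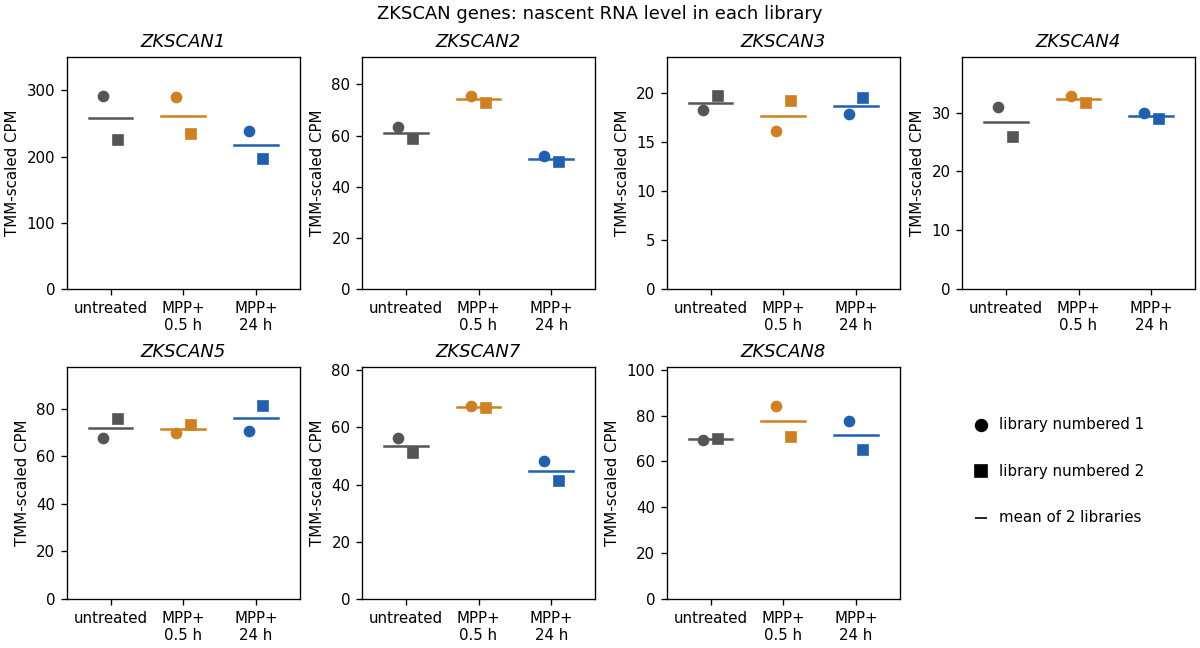
TMM-scaled CPM of each ZKSCAN gene (vertical axes, from 0) in the libraries of untreated cells, 0.5 h and 24 h of MPP+ (horizontal axes), with circles for the library numbered 1, squares for the library numbered 2 and a line for the mean. For ZKSCAN7 and ZKSCAN2 the 3 groups do not overlap, with 0.5 h highest and 24 h lowest, whereas the 2 libraries of 1 group of ZKSCAN1 lie as far apart as 292 and 225 CPM.

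The other 5 members had smaller log2 fold changes at 0.5 h than those 2. ZKSCAN1 had 292 and 225 CPM in untreated cells, 289.7 and 234 CPM at 0.5 h, and 239 and 197 CPM at 24 h. In each group the library numbered 1 was the higher one, and the 24 h range overlapped that of untreated cells. Its log2 fold change was 0.02 ± 0.16 at 0.5 h and -0.24 ± 0.16 at 24 h, both against untreated cells (edgeR adjusted p = 1 and 0.755). The first of these was -0.17 without untreated replicate 2, -0.14 without 0.5 h replicate 1 and -0.003 under upper-quartile normalization. The 24 h value ran from -0.046 without untreated replicate 1 to -0.43 without untreated replicate 2.

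In the chromosome 6 cluster, ZKSCAN8 had 69.3 and 69.8 CPM in untreated cells, 84.3 and 70.5 CPM at 0.5 h, and 77.6 and 65.1 CPM at 24 h. ZKSCAN4 had 31 and 25.9 CPM in untreated cells, 32.9 and 31.7 CPM at 0.5 h, and 30 and 28.9 CPM at 24 h. In both genes the 0.5 h libraries lay above the untreated ones without overlap, by as little as 70.5 against 69.8 CPM in ZKSCAN8. The log2 fold change at 0.5 h was 0.02 for ZKSCAN8 without 0.5 h replicate 1 and 0.052 for ZKSCAN4 without untreated replicate 2. ZKSCAN3, which is known in human cells as a repressor of autophagy and lysosome genes, had 18.2 and 19.7 CPM in untreated cells, 16.1 and 19.2 CPM at 0.5 h, and 17.8 and 19.5 CPM at 24 h. Its groups overlapped throughout. Against untreated cells at 0.5 h, the log2 fold change was 0.16 ± 0.12 for ZKSCAN8, 0.19 ± 0.14 for ZKSCAN4 and -0.11 ± 0.17 for ZKSCAN3 (edgeR adjusted p = 1 each). At 24 h the values were 0.041 ± 0.13 for ZKSCAN8, 0.052 ± 0.14 for ZKSCAN4 and -0.029 ± 0.17 for ZKSCAN3 (adjusted p = 0.961, 0.957 and 0.982).

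ZKSCAN5 had the smallest difference at 0.5 h. It had 67.8 and 75.8 CPM in untreated cells, 69.8 and 73 CPM at 0.5 h, and 70.7 and 81.2 CPM at 24 h, with overlap between all groups. Its log2 fold change against untreated cells was -0.0098 ± 0.11 at 0.5 h (interval -0.26 to 0.24) and 0.077 ± 0.11 at 24 h (interval -0.17 to 0.33), with edgeR adjusted p = 1 and 0.904. The signs of the ZKSCAN3, ZKSCAN4, ZKSCAN5 and ZKSCAN8 values changed under at least 1 alternative in 1 comparison or more.

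In count, 0 of 7 members passed the edgeR test at 0.5 h, where 0.0735% of all tested genes were called, and 0 of 7 passed at 24 h against untreated cells, where 0.0692% were. DESeq2 also called 0 members in each. At an unadjusted p under 0.05, 2 members were higher at 0.5 h (ZKSCAN2 and ZKSCAN7), where 1.05% of all genes were. At 24 h against untreated cells 1 member was lower (ZKSCAN2), where 4.09% of all genes were, and 0 were higher, where 4.01% were. Both libraries lay above both untreated libraries for 4 of 7 members at 0.5 h, against 12.9% of all genes, and lay below them for 2 of 7 at 24 h, against 18.5%. The median log2 fold change of the 7 was 0.16 at 0.5 h and -0.029 at 24 h, both against untreated cells, beside 0.0082 and 0.0023 over all genes. The 0.5 h median was 0.023 without 0.5 h replicate 1 and 0.066 without untreated replicate 2. The 24 h median was -0.085 without untreated replicate 2, -0.046 without untreated replicate 1 and -0.095 without either 24 h library. Both comparisons use libraries that chose the members, so the counts and medians at 0.5 h and at 24 h are descriptions from which nothing is read about the family. In the contrast that chose the members, 24 h against 0.5 h, edgeR called 0 of 23133 genes (0% of all tested), 0 members among them, and DESeq2 called 0 as well. At an unadjusted p under 0.05, 2.8% of all genes were higher and 3.62% lower there, ZKSCAN2 and ZKSCAN7 among the lower ones. With the replicate number as a block, 1.28% of all genes were called lower in that contrast, with ZKSCAN1, ZKSCAN2 and ZKSCAN7 among them. Nothing is read from these counts, since the contrast chose the members. The authors' deposited tables of differential genes list 24 genes for 24 h and 17 for 0.5 h, and 0 of the 7 members stand in either.

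**Figure D2:**
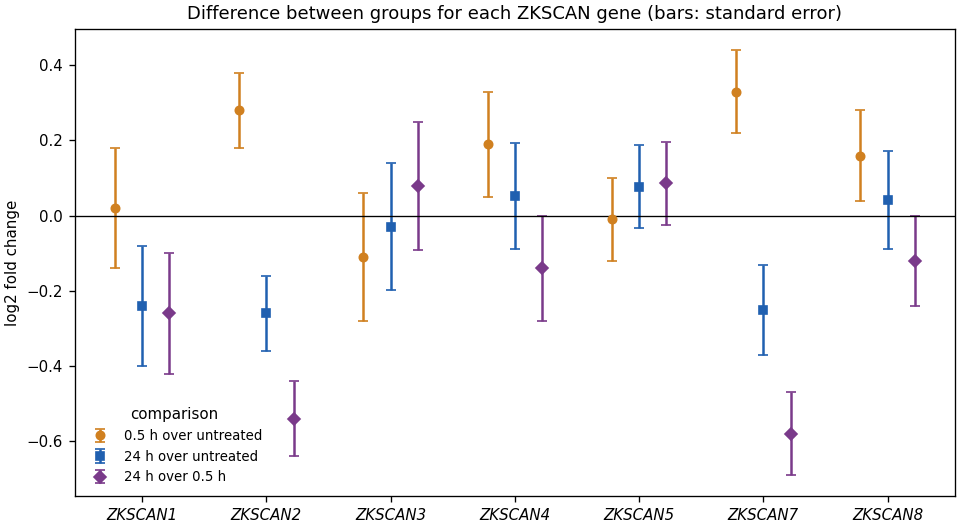
Log2 fold change (vertical axis) of each ZKSCAN gene (horizontal axis) in the 3 comparisons, with the standard error of the edgeR fit as bars. At 0.5 h over untreated cells ZKSCAN7 and ZKSCAN2 are highest at 0.33 and 0.28, and at 24 h over 0.5 h, the difference that chose them, they are lowest at -0.58 and -0.54.

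Overlapping and divergent transcripts were read beside the members, since the strand setting of the counts is not given in the sources used here. Without strand, reads from a gene and its antisense partner cannot be told apart. ZKSCAN7-AS1, an antisense RNA gene, covers 94.4% of the span of ZKSCAN7. It had 85.5 and 85.5 CPM in untreated cells, 86.1 and 97.6 CPM at 0.5 h, and 84.7 and 88.3 CPM at 24 h. Its 0.5 h libraries lay above the untreated ones, and its 24 h libraries lay on both sides of them. Its log2 fold change was 0.10 ± 0.10 at 0.5 h and 0.017 ± 0.10 at 24 h, both against untreated cells. ZNF660 and ZNF197, zinc finger genes on the strand of ZKSCAN7 whose spans cover 40.9% and 23.8% of it, were listed at 0 in all 6 libraries.

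ZKSCAN2-DT, a noncoding RNA gene that starts 21 bases from the start of ZKSCAN2 and runs the other way, had 40.7 and 38.1 CPM in untreated cells, 46.7 and 41.8 CPM at 0.5 h, and 36.7 and 38.8 CPM at 24 h. Its 0.5 h libraries lay above the untreated ones and its 24 h libraries overlapped them. The log2 fold change was 0.17 ± 0.12 at 0.5 h and -0.062 ± 0.12 at 24 h, both against untreated cells, with the same sign as in ZKSCAN2 at each time. ZSCAN31, another SCAN domain gene, overlaps 33% of ZKSCAN3 from the opposite strand and had 0.31 ± 0.16 at 0.5 h. ZKSCAN8P1, a pseudogene of ZKSCAN8 that lies 2297 bases beyond it, had 0.13 ± 0.16 at 0.5 h and 0.24 ± 0.16 at 24 h. Reads that fit both copies are uncertain, because the multimapping setting is not given in the sources used here.

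Of the genes within 200 kb of a member, 59 were tested, and 0 passed at 0.5 h or at 24 h against untreated cells (edgeR). Their median log2 fold change was 0.059 at 0.5 h and -0.034 at 24 h. At 0.5 h 38 of 59 lay above 0, beside 12058 of all 23133 tested genes. The 0.5 h median was -0.032 without untreated replicate 1. The 24 h median was 0.075 without untreated replicate 2, 0.017 in a window of 100 kb and 0.024 in one of 500 kb, so neither sign held throughout. Around ZKSCAN7, all 9 tested neighbours had a value below 0 at 24 h over 0.5 h, from -0.39 (ZNF501 and C3orf86P) to -0.033 (ZNF445), with a median of -0.12. Around ZKSCAN2, 4 of 6 neighbours did, with a median of -0.066 and the lowest value, -0.52, in the water channel gene AQP8. The neighbours overlap the zinc finger genes taken by symbol, in ZNF501 and ZNF445 among others. At 24 h over 0.5 h, 39 of the 59 neighbours, 354 of 510 zinc finger genes taken by symbol and 11445 of all 23133 tested genes lay below 0. This contrast chose ZKSCAN2 and ZKSCAN7, so nothing is read from the counts around them. ZKSCAN1 had 19 tested neighbours, with a median of -0.042, and ZKSCAN5 had 12, with -0.057. By the smallest p at 24 h, the named neighbours were GPC2, a heparan sulfate proteoglycan gene near ZKSCAN1, with 46.9 ± 0.969 CPM at 24 h against 60.7 ± 3.39 CPM in untreated cells (log2 fold change -0.37 ± 0.11, edgeR adjusted p = 0.537), then ENSG00000237640 near ZKSCAN1, with 6.39 ± 0.153 CPM against 3.7 ± 0.74 CPM (0.77 ± 0.27, adjusted p = 0.574), and CYP3A5, a drug-metabolising enzyme gene near ZKSCAN5, with 17 ± 0.207 CPM against 12.9 ± 0.333 CPM (0.40 ± 0.17, adjusted p = 0.605).

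**Figure D3:**
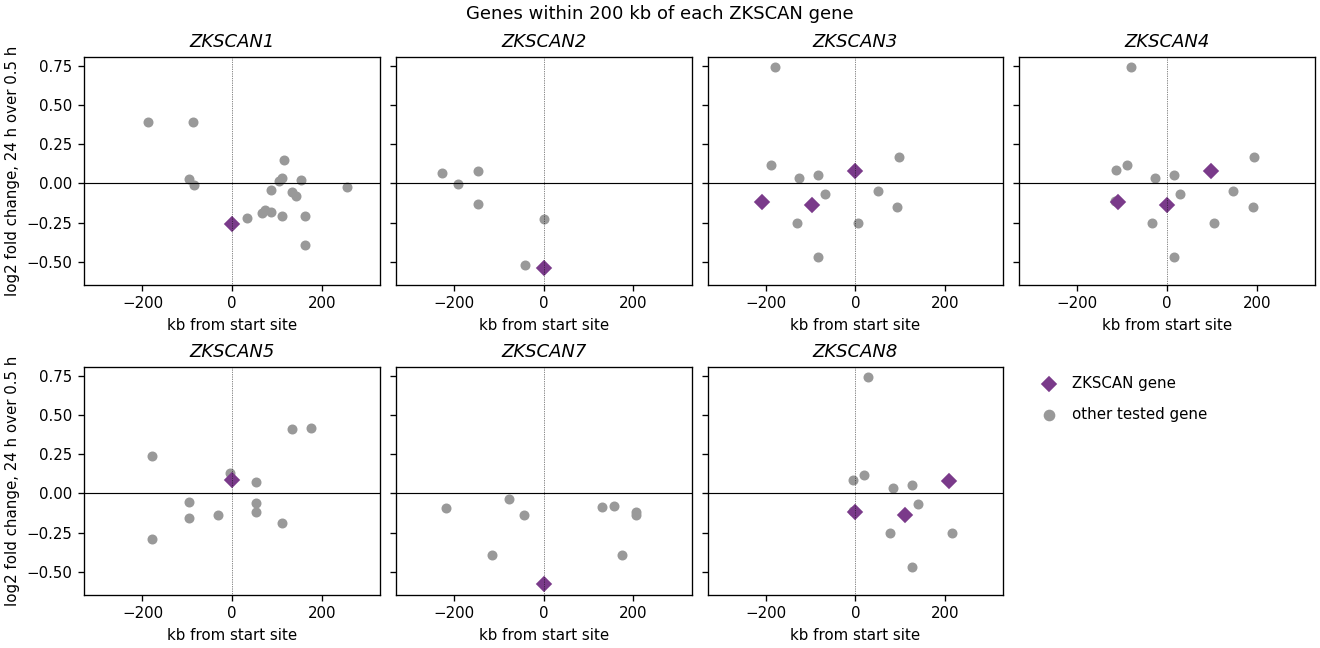
Log2 fold change of 24 h over 0.5 h (vertical axes) for tested genes within 200 kb of each ZKSCAN gene, by the distance between start sites in kb (horizontal axes), with diamonds for ZKSCAN genes and grey circles for other genes. All 9 neighbours of ZKSCAN7 lie below 0 but above its own value of -0.58, where 11445 of all 23133 tested genes lie below 0. ZKSCAN3, ZKSCAN4 and ZKSCAN8 appear in one another's panels.

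The wider families that these genes belong to had small medians at both times. Of 50 other SCAN domain genes, 38 were tested and 0 passed in either direction at either time. At 0.5 h against untreated cells their median log2 fold change was 0.061. There 26 of 38 lay above 0, beside 12058 of all 23133 tested genes. At 24 h their median was -0.067, and 22 of 38 lay below 0, beside 11464 of all 23133. The 0.5 h median was -0.054 without untreated replicate 1 and -0.017 without 0.5 h replicate 2, and the 24 h median was 0.10 without untreated replicate 2, so neither sign held throughout. By the smallest p at 24 h, SCAND3 had 78.3 ± 1.24 CPM at 24 h against 56.7 ± 13.5 CPM in untreated cells (0.46 ± 0.15, adjusted p = 0.553) and SCAND1, which encodes a SCAN domain without zinc fingers, had 38.5 ± 3.69 CPM against 48 ± 2.36 CPM (-0.31 ± 0.12, adjusted p = 0.602). ZNF397 had -0.23 ± 0.10 and ZNF75D 0.42 ± 0.17 (adjusted p = 0.602 each).

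Zinc finger genes at large, taken by symbol and overlapping the SCAN list and the neighbours, numbered 510 tested of 639. At 0.5 h against untreated cells their median was 0.038. There 335 of 510 lay above 0, beside 12058 of all 23133 tested genes. At 24 h their median was -0.049, and 305 of 510 lay below 0, beside 11464 of all 23133. The 0.5 h median was -0.0058 without untreated replicate 1 and -0.011 without 0.5 h replicate 2. At an unadjusted p under 0.05, 2 were higher and 2 lower at 0.5 h, and 4 higher and 20 lower at 24 h. Over all tested genes the shares were 1.05% and 1.41% at 0.5 h, and 4.01% and 4.09% at 24 h. None passed over all genes by edgeR, and DESeq2 called 1 at 24 h. ZNF622, which is known to act in ribosome maturation, had 68.7 ± 17.5 CPM at 24 h against 36.7 ± 4.6 CPM in untreated cells (0.91 ± 0.18, edgeR adjusted p = 0.302), and ZNF740 had 43.5 ± 4.38 CPM against 59.1 ± 4.17 CPM (-0.45 ± 0.12, adjusted p = 0.492).

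Genes of the TRIM28 corepressor, its partners and the HUSH complex, through which many KRAB zinc finger proteins silence chromatin, were 14 of 14 tested. Of these, 0 were called at either time. Their median was -0.012 at 0.5 h and -0.09 at 24 h, against untreated cells. At 24 h 12 of 14 lay below 0, beside 11464 of all 23133 tested genes. The 0.5 h median was 0.058 without untreated replicate 1 and 0.0039 without the filter on low counts. Among them the remodeller gene CHD3 had 83.3 ± 0.276 CPM at 24 h against 99.5 ± 6.61 CPM in untreated cells (-0.26 ± 0.10, adjusted p = 0.595), and the deacetylase gene HDAC1 had 108 ± 10.6 CPM against 137 ± 30.9 CPM (-0.34 ± 0.15, adjusted p = 0.615). Autophagy and lysosome genes, the kind that ZKSCAN3 is known to repress, were 33 tested of 36, with 0 called and medians of -0.017 at 0.5 h and -0.085 at 24 h. The 0.5 h median was 0.033 without 0.5 h replicate 1 and 0.012 without untreated replicate 2. WIPI2, needed for autophagosome formation, had 70.3 ± 0.643 CPM at 24 h against 86.9 ± 4.75 CPM in untreated cells (-0.30 ± 0.10, adjusted p = 0.553), and the autophagy kinase gene ULK1 had 49.9 ± 1.66 CPM against 63.5 ± 10.2 CPM (-0.34 ± 0.15, adjusted p = 0.602).

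**Figure D4:**
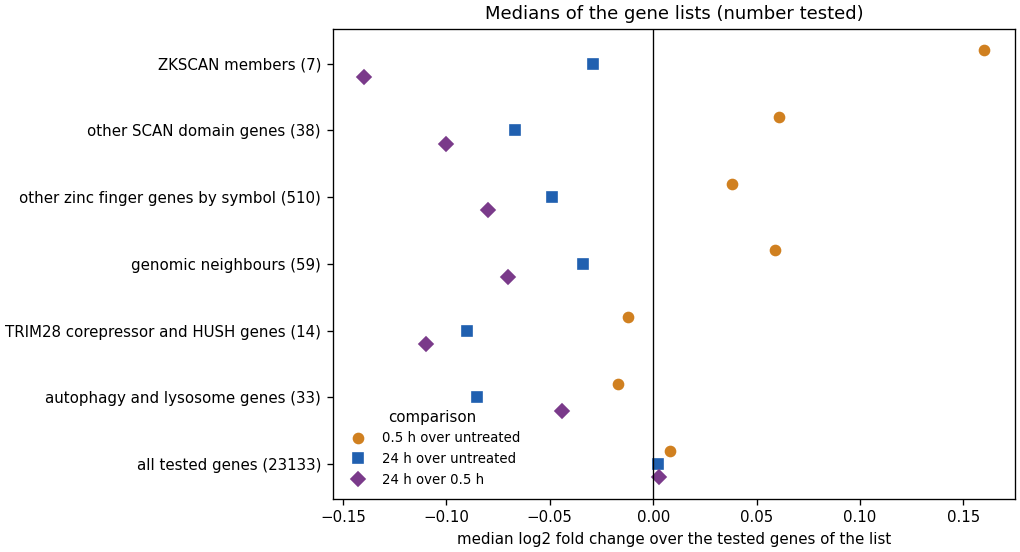
Median log2 fold change (horizontal axis) of each gene list (vertical axis, with the number of genes tested) in the 3 comparisons. The ZKSCAN genes have a 0.5 h median of 0.16, which is 0.023 without 0.5 h replicate 1. The difference that chose them uses the 0.5 h group. The lists of SCAN domain genes, zinc finger genes and neighbours have 0.5 h medians between 0.038 and 0.061. Without untreated replicate 1 these are -0.054, -0.0058 and -0.032. The TRIM28 and autophagy lists have 0.5 h medians of -0.012 and -0.017. All tested genes lie at 0.0082 or less in the 3 comparisons.

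Genes whose pattern across the 6 libraries was most like that of the pair were looked for among genes with at least 5 CPM on average. For ZKSCAN7 they were SLC38A2-AS1 (Pearson r = 0.994), the sialyltransferase gene ST8SIA3 (0.989) and QTRT1, a tRNA modification enzyme gene (0.986), and ZKSCAN2 came 5th. For ZKSCAN2 they were the netrin receptor gene UNC5C (0.997), ENSG00000275993 (0.992) and the zinc finger gene ZNF260 (0.991), and ZKSCAN7 came 7th. Since ZKSCAN2 and ZKSCAN7 were chosen on the same difference, nothing is read from these ranks. The sizes differed: the log2 fold change of 24 h over 0.5 h was -0.28 in SLC38A2-AS1, -0.28 in ST8SIA3 and -0.32 in QTRT1, and it was -0.12 in UNC5C, -0.69 in ENSG00000275993 and -0.34 in ZNF260.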

How the data were processed

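Per the file headers, reads were trimmed and aligned with Bowtie2, and the deposited files of the authors hold raw counts per gene for each library. Per the submitters' processing notes, cutadapt 1.16.5, Bowtie2 2.4.2, SAMtools 1.13, featureCounts 2.0.1, DESeq2 2.11.40.6 and hg38 were used. The authors' deposited tables of differential genes give log2 fold changes, per the file headers, and were used here only to look up the members. The sources used here state neither the strand, feature and multimapping settings of the counting nor its annotation release. Symbols came from a table of gene names for 60437 of 67051 identifiers and, for 257 more, from GENCODE 29.

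Counts were filtered with filterByExpr and scaled by TMM. All 6 libraries entered 1 quasi-likelihood fit (edgeR 4.0.16, R 4.3.3) with 1 coefficient per group, two-sided, with Benjamini-Hochberg adjustment over 23133 genes and a threshold of 0.05. The common biological coefficient of variation was 0.113. Intervals are 95% t intervals of the fitted log2 fold change. DESeq2 1.42.0 and the other alternatives are given in the closing section. A count of 0 would allow up to 3 counts, 2.56e-05% to 5.01e-05% of a library, and this covers counting error only.

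The members and gene lists were chosen with earlier results of these data known. From each list the text names up to 4 genes by the smallest p at 24 h. The rule for genes of like pattern took members called in 24 h against 0.5 h, of which there were 0, so it was applied, after the values were seen, to the 2 lowest members.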

Additional observations from a re-analysis of the deposited data

Results flagged for a closer look

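ZKSCAN2 and ZKSCAN7 were flagged for the difference between groups that chose them. Both 0.5 h libraries lay above, and both 24 h libraries below, the untreated ones, as in 1.41% of all tested genes. The log2 fold change of 24 h over 0.5 h was -0.54 for ZKSCAN2 and -0.58 for ZKSCAN7. The fit by group over all genes called neither gene in that contrast. The members were chosen for this difference, so it is given as a description and nothing is read from a test of it.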

How the results depend on the processing

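Under the 13 alternatives, 0 members passed at 0.5 h or at 24 h against untreated cells. At 24 h over 0.5 h, 2 passed without the filter on low counts (ZKSCAN2 and ZKSCAN7), where 0.125% of 35125 genes were called lower. With the replicate block 3 passed (ZKSCAN1 as well), where 1.28% of 23133 genes were called lower. That contrast chose the members, so nothing is read from these counts. The labels do not say that a replicate number marks a shared culture or day. As a check of the pairing, the difference between libraries 1 and 2 correlated across genes by 0.293 to 0.328 between groups. It had 1 sign in all 3 groups for 6 of 7 members, with log2 values as small as 0.018 (ZKSCAN7 at 0.5 h). The share of all genes with 1 sign is not given here, so nothing is read from that count. ZKSCAN2 and ZKSCAN7 kept their sign in all 13 alternatives of each comparison. The alternatives reuse the same 6 libraries, and the 2 genes were chosen on 2 of the groups, so nothing is read from this. Over all genes, without the filter 20 were called higher and 46 lower at 0.5 h, 130 and 115 at 24 h, both against untreated cells, and 29 and 44 at 24 h over 0.5 h. With the block these counts were 15 and 42, 301 and 384, and 116 and 296, and DESeq2 called 13 higher at 24 h. Leaving out 1 library gave 9 to 19 lower calls at 0.5 h, and 0 to 1 higher and 8 to 16 lower at 24 h. Of 273 member values, 17 reversed. At 0.5 h, ZKSCAN1 had -0.003 under upper-quartile normalization and ZKSCAN5 0.0052 without the filter. With 1 library left out, the 0.5 h values ran from -0.17 to 0.22 for ZKSCAN1, -0.24 to 0.018 for ZKSCAN3 and -0.086 to 0.066 for ZKSCAN5. At 24 h against untreated cells they ran from -0.095 to 0.039 for ZKSCAN3, -0.085 to 0.18 for ZKSCAN4, -0.024 to 0.18 for ZKSCAN5 and -0.095 to 0.16 for ZKSCAN8. At 24 h over 0.5 h they ran from -0.047 to 0.20 for ZKSCAN3, -0.012 to 0.18 for ZKSCAN5 and -0.25 to 0.021 for ZKSCAN8. The members' 0.5 h median ran from 0.023 to 0.22, and the SCAN list's 24 h median from -0.12 to 0.10. At 24 h the block called 1 gene of the SCAN list, 1 of the TRIM28 list, 6 zinc finger genes and 2 neighbours, and no filter or DESeq2 called 1 zinc finger gene. At 24 h over 0.5 h the block called 1, 1, 6 and 1, no filter called 1 SCAN and 1 zinc finger gene, and the TRIM28 median was -0.074 under upper-quartile normalization. The causes were not tested.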
